A study of Mus musculus with 6 samples.

Results

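The 10 genes described here encode core proteins of mitochondrial fusion (Mfn1, Mfn2, Opa1), mitochondrial fission (Dnm1l, Fis1, Mff, Mief1, Mief2) and mitophagy (Pink1, Bnip3). They were chosen by name from 57132 genes in the count table, and all 10 were among the 16263 genes with enough counts to be tested. RNA was sequenced from immortalized mouse podocytes, the epithelial cells that cover the glomerular capillaries, in 3 WT samples (cell line IMWT, Col4a3+/+) and 3 AS samples (cell line IMAS, Col4a3-/-). AS stands for Alport syndrome, an inherited kidney disease of type IV collagen, and Col4a3 encodes a collagen chain of the glomerular basement membrane. The lines are labelled as adult male, from animals aged 8 weeks. They were untreated and were grown at 33 °C with 10% serum and 20 U/mL interferon gamma, then differentiated at 37 °C for 14 days according to the sample records, whereas the study's methods give another medium, less interferon and a shorter differentiation. Both lines carry the H-2Kb-tsA58 transgene, in which an interferon-responsive promoter drives a temperature-sensitive viral T antigen, so the controls are transgenic as well. Each genotype is 1 cell line, so genotype and line cannot be told apart. Whether the 3 samples of a line were separate cultures is not stated, and the p-values measure only the spread between these samples.

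Mitochondria form a network that is joined by fusion and cut by fission. The mitofusins Mfn1 and Mfn2 are GTPases of the outer membrane that tether and fuse neighbouring mitochondria, and Opa1 is the GTPase that fuses the inner membrane and shapes the cristae. For fission, the dynamin-related GTPase Dnm1l (DRP1) is recruited from the cytosol to outer membrane proteins, among them Mff, Mief1, Mief2 and Fis1, and constricts the organelle. Damaged mitochondria can be removed by autophagy, either after the kinase Pink1 accumulates on them and phosphorylates ubiquitin, or through receptors such as Bnip3, a hypoxia-induced protein of the outer membrane. Podocytes are long-lived cells with little capacity for replacement, and their mitochondria have been studied for that reason.

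The promoter windows of the 4 genes that differed between the lines, and of Bnip3, whose window holds a hypoxia motif, are shown from RefSeq (GRCm38.p6), from 250 bases before to 50 bases after the most upstream listed start. Of the 10 genes, all had a window and 4 had more than 1 listed start. Capitals mark matches to any of 5 motifs searched on both strands: the hypoxia response core ACGTG, the E-box CACGTG (which contains that core), the NRF1 core TGCGCA, the ERR half-site AAGGTCA and the TATA core TATAAA.
Mfn1 promoter, chr3:32529232-32529531 (GRCm38.p6, plus strand): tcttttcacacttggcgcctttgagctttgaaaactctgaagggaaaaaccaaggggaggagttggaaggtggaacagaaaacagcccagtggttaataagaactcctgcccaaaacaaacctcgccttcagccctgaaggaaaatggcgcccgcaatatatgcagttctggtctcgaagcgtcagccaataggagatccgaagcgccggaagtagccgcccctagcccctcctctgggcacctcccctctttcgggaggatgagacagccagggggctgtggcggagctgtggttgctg
Mfn2 promoter, chr4:147904860-147905159 (GRCm38.p6, minus strand): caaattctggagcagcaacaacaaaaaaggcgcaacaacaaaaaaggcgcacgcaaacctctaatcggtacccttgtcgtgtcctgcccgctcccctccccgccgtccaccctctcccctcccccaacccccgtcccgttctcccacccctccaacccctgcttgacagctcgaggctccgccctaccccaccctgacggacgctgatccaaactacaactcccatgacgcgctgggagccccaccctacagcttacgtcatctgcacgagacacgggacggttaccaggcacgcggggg
Dnm1l promoter, chr16:16358982-16359281 (GRCm38.p6, minus strand): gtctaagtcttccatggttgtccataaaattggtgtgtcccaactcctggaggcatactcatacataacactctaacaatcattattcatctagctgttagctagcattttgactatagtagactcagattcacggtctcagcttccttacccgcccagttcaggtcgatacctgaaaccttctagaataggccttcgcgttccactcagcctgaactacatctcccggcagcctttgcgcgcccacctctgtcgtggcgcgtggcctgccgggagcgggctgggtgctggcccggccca
Fis1 promoter, chr5:136953025-136953324 (GRCm38.p6, plus strand): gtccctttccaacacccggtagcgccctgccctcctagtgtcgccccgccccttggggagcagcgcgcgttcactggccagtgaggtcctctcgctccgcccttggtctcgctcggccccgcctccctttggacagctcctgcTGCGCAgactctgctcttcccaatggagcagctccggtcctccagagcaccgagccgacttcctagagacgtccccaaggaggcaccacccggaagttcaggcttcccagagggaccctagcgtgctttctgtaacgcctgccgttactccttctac
Bnip3 promoter, chr7:138909457-138909756 (GRCm38.p6, minus strand): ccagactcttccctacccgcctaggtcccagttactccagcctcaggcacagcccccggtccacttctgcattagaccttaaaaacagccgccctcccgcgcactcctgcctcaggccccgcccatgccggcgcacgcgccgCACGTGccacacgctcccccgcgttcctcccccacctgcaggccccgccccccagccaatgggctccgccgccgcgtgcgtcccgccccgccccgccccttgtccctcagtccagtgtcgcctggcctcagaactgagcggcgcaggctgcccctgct
The windows of Mfn1, Mfn2 and Dnm1l held none of these motifs. That of Fis1 held TGCGCA at -107 to -102 relative to the start, and that of Bnip3 held CACGTG at -108 to -103. Among all 10 windows, TGCGCA occurred in 4 (Opa1, Fis1, Mief2 and Pink1) against 7.76% of 32851 windows of the same length, and CACGTG and ACGTG each occurred in 2 (Mief2 and Bnip3) against 7.15% and 19.6%. The ERR half-site (4.72% of windows) and the TATA core (13.6%) occurred in 0 of the 10. The window was rich in G and C in Bnip3 (71.7%), Mief1 (68.7%) and Fis1 (65.0%), against a median of 52.7% over all windows. A match is a string of letters and was not tested as a binding site.

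The 6 libraries held between 45417221 and 54290968 counts. Col4a3 was at 938, 1052 and 1272 CPM (read counts relative to the TMM-scaled library size) in the WT samples and at 62.4, 61.2 and 82.9 CPM in the AS samples, as the labels state. WT replicate 1 stood somewhat apart from its group: the chi-square of counts per degree of freedom was 48.6 and 51.0 against the other WT samples, which differed from each other by 9.96, while the AS pairs lay between 19.1 and 23.0. The podocyte label was checked with 9 markers. Synpo and Actn4, actin-associated proteins of the foot process, were at 803 ± 44.2 and 810 ± 45.7 CPM (SD, n = 3 each) in WT podocytes. Nphs1, the slit diaphragm protein nephrin, averaged only 0.466 CPM in WT and 0.0407 CPM in AS samples. Of 8 podocyte markers tested, 6 were lower and 1 was higher in AS podocytes in edgeR's test, and their summed level was 1725 to 1897 CPM in WT and 1293 to 1379 CPM in AS podocytes. The summed level of 5 endothelial markers was at most 1.35 CPM and that of 5 immune markers at most 3.14 CPM in any library. Markers of neighbouring kidney cells were present at higher levels. The 5 mesangial markers summed to 248 to 275 CPM in WT and 123 to 125 CPM in AS podocytes. The 5 parietal markers summed to 642 to 672 CPM in WT and 503 to 533 CPM in AS podocytes. The 5 tubular markers summed to 373 to 419 CPM in WT and 275 to 386 CPM in AS podocytes, mostly from Lrp2 and Aqp1, with Umod at 0. The mesangial sum came almost wholly from Pdgfrb, at 242 to 269 CPM in WT and 115 to 116 CPM in AS samples. The part of these differences in the results below was not tested, and in bulk RNA fewer cells of a kind and less RNA per cell cannot be told apart.

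AS and WT podocytes were compared to learn which genes of mitochondrial dynamics differ between the lines. In AS podocytes Fis1 rose 1.20-fold, while Mfn1, Mfn2 and Dnm1l fell to 0.863, 0.866 and 0.899 times the WT level. The other 6 genes, Opa1, Mff, Mief1, Mief2, Pink1 and Bnip3, did not pass the test. Thus 4 of 10 genes (1 higher, 3 lower) passed the quasi-likelihood test of edgeR at 0.05 after Benjamini-Hochberg adjustment over all genes, against 40.1% of all genes tested (20.4% higher and 19.6% lower). Among the 9156 genes with a mean of at least 10 CPM, the share was 46.8%. The share of the 10 genes that passed was therefore near the background of this comparison. The WT and AS samples did not overlap in 5 of the 10 genes, against 52.3% of all genes tested. The median absolute log2 fold change was 0.12 over the 10 genes, 0.20 over the genes with at least 10 CPM and 0.28 over all genes tested. The largest of the 10, that of Fis1, was exceeded by 52.5% of genes tested. All 10 intervals (95%, from the edgeR fit) lay between 0.777-fold and 1.32-fold, so that a change of 1.5-fold in either direction was outside each of them.

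**Figure D1:**
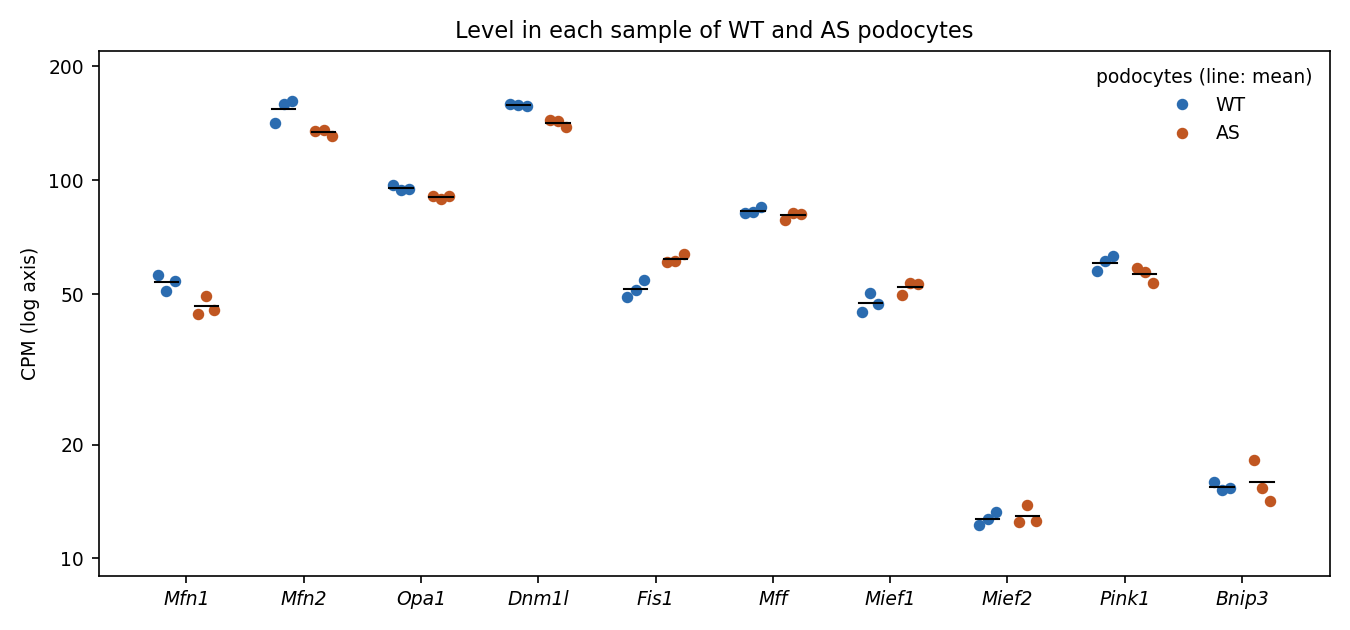
CPM of each gene (log axis) in the 3 WT and 3 AS samples, 1 point per sample with a line at the group mean. The AS points of Fis1 (60.8 to 63.7 CPM) lie above all its WT points, those of Mfn1, Mfn2, Opa1 and Dnm1l lie below, and those of the other genes overlap.

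Of the fusion genes, Mfn1 (ENSMUSG00000027668.14, chromosome 3) was at 56.2, 50.9 and 54.2 CPM in the WT samples and at 44.2, 49.5 and 45.4 CPM in the AS samples. The groups did not overlap, although the highest AS and the lowest WT value were close. Mean Mfn1 fell from 53.7 ± 2.67 to 46.4 ± 2.74 CPM (SD, n = 3 in each line), which is -0.21 as log2 fold change with a standard error of 0.067 (edgeR, adjusted p = 0.0301). Mfn2 (ENSMUSG00000029020.14, chromosome 4), which also links mitochondria to the endoplasmic reticulum, was at 142, 159 and 162 CPM in the WT samples and at 135, 136 and 131 CPM in the AS samples. WT replicate 1 lay closer to the AS samples than to the other WT samples. The log2 fold change of Mfn2 was -0.21 (standard error 0.062, adjusted p = 0.0254, edgeR), and -0.26 without WT replicate 1. Opa1 (ENSMUSG00000038084.17, chromosome 16) varied little, at 97.0, 94.1 and 94.7 CPM in WT and 90.8, 89.5 and 90.7 CPM in AS samples. Its groups did not overlap, yet its log2 fold change of -0.077 (interval -0.18 to 0.030, adjusted p = 0.232, edgeR) did not pass the test. All 3 fusion genes were thus lower in each AS sample than in any WT sample, and only the mitofusins among them passed the test. Such a lack of overlap, in either direction, was found in 52.3% of all genes tested, and the fission gene Dnm1l had it as well.

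Of the fission genes, Dnm1l (ENSMUSG00000022789.16, chromosome 16), the GTPase that carries out the constriction, was at 159.5, 158 and 157 CPM in the WT samples and at 145, 144 and 138 CPM in the AS samples. It fell by 0.15 on the log2 scale (standard error 0.050, adjusted p = 0.0341, edgeR), with no overlap between the groups. Fis1 (ENSMUSG00000019054.14, chromosome 5) went the other way, from 49.0, 51.1 and 54.4 CPM in WT to 60.8, 61.1 and 63.7 CPM in AS samples. Mean Fis1 rose from 51.5 ± 2.72 to 61.9 ± 1.61 CPM (SD, n = 3 in each line), or by 0.27 on the log2 scale with a standard error of 0.060 (edgeR, adjusted p = 0.00661). Fis1 was the only one of the 10 genes to pass the test in the higher direction, and it had the smallest adjusted p among them. The genes of the other 3 outer membrane proteins named above as recruiting DRP1, Mff, Mief1 and Mief2, did not pass. Mff (ENSMUSG00000026150.15, chromosome 1) was at 81.7, 82.5 and 84.7 CPM in WT and 78.6, 82.0 and 81.5 CPM in AS samples, with a log2 fold change of -0.040 (interval -0.15 to 0.074, adjusted p = 0.572, edgeR). Mief1 (ENSMUSG00000022412.15, chromosome 15) was at 44.8, 50.4 and 47.0 CPM in WT and 49.8, 53.6 and 53.2 CPM in AS samples, with a log2 fold change of 0.14 (interval -0.0071 to 0.29, adjusted p = 0.120, edgeR). Its groups overlapped through WT replicate 2 and AS replicate 1. Mief2 (ENSMUSG00000018599.6, chromosome 11) was at 12.3, 12.7 and 13.2 CPM in WT and 12.5, 13.8 and 12.6 CPM in AS samples, with 0.026 as its log2 fold change (interval -0.18 to 0.23, edgeR, adjusted p = 0.847).

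Because every fold change depends on how libraries are scaled, Fis1 was also set against Dnm1l within each sample, a pair chosen after their values were seen. Per Dnm1l count, the WT libraries held 0.307, 0.323 and 0.347 Fis1 counts and the AS libraries 0.421, 0.425 and 0.461. The ratio in AS podocytes was 1.34 times that in WT podocytes, a log2 difference of 0.42, and its direction and separation follow from the choice of the pair. The median log2 fold change of expressed genes (mean log2 CPM above 2) was 0.20 on the chromosome of Fis1 and -0.062 on that of Dnm1l. It is a ratio of RNA counts within a library and does not show which of the genes changed.

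Of the mitophagy genes, Pink1 (ENSMUSG00000028756.13, chromosome 4) was at 57.5, 61.0 and 63.0 CPM in the WT samples and at 58.7, 57.1 and 53.5 CPM in the AS samples. The groups overlapped, and the log2 fold change of -0.10 (interval -0.24 to 0.040, adjusted p = 0.232, edgeR) did not pass. Bnip3 (ENSMUSG00000078566.9, chromosome 7) was at 15.9, 15.2 and 15.3 CPM in WT and at 18.2, 15.4 and 14.2 CPM in AS samples. Its AS samples spread more widely than those of any other gene of the 10, with a coefficient of variation of 13.0% against 2.63% in WT podocytes, and they lay on both sides of the WT range. Its log2 fold change was 0.041 (interval -0.19 to 0.27, adjusted p = 0.783, edgeR), and -0.074 without AS replicate 1. The receptor Bnip3l (NIX), a paralog of Bnip3, was far more abundant and similar in both lines, at 126, 122 and 124 CPM in WT and 124, 116 and 119.5 CPM in AS samples (log2 fold change -0.049, adjusted p = 0.485, edgeR).

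Some of these counts could be shared with other genes. Bnip3 matches the pseudogenes Gm16439 (98.9% identity over 564 bases), Gm6532, Gm9419 and Gm14506, of which Gm16439 had most counts, 57 in all WT and 59 in all AS samples together, beside 2225 and 2393 for Bnip3. The antisense gene Gm45507 at the same place held 26 and 15 counts. Dnm1l matches the pseudogene Gm13719 over 2153 bases, which held 0 and 2 counts. Mfn1 matches short stretches of several other genes, such as Ncor1 (87.8% identity over 213 bases) and D6Wsu163e (90.8% over 206 bases). Ncor1 held 27833 counts in WT and 30341 in AS samples and D6Wsu163e 3171 and 2954, beside 7729 and 7033 for Mfn1. Whether reads were shared was not tested. An open reading frame annotated within Mief1 as a separate gene, AC140267.1, is identical to Mief1 over 213 bases and had 0 counts in every library. Mff is overlapped on the other strand by C430014B12Rik, which held 348 counts in WT and 145 in AS samples against 11911 and 12241 for Mff. Whether the counting used strand is not given in the sources used here, so reads of overlapping genes cannot be told apart.

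The 10 genes lie on 8 chromosomes, and whole chromosomes differ between these lines. Among genes whose mean log2 CPM exceeded 2, chromosome 5 had a median log2 fold change of 0.20 (696 genes), and it holds Fis1. The median was also 0.20 on chromosome 15 (431 genes), which holds Mief1. It was -0.16 on chromosome 4 (683 genes), which holds Mfn2 and Pink1, -0.10 on chromosome 3 (Mfn1) and -0.062 on chromosome 16 (Opa1 and Dnm1l). On chromosomes 1, 7 and 11, which hold Mff, Bnip3 and Mief2, it was -0.012, -0.011 and -0.030. In 8 of the 10 genes the fold change had the same sign as the median of its chromosome, the exceptions being Mief2 and Bnip3. Genes mostly share the sign of such a median by its definition, and the share over all genes was not worked out. The sign says little on chromosomes 1, 7 and 11, whose medians were near 0. With the chromosome median entered as an offset in the same edgeR test, a setting chosen after the data were seen, the difference from that median was 0.064 for Fis1 (adjusted p = 0.452), -0.046 for Mfn2 (adjusted p = 0.618), -0.11 for Mfn1 (adjusted p = 0.238) and -0.092 for Dnm1l (adjusted p = 0.194). None of the 10 genes passed in that fit, by edgeR's adjusted p or by an unadjusted p under 0.05 (0 of 10), whereas 33% of all genes tested did by adjusted p. Measured against its chromosome, Mief1 changed sign to -0.065 and Pink1 to 0.061, neither past the threshold. What shifted the chromosomes was not tested here.

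**Figure D2:**
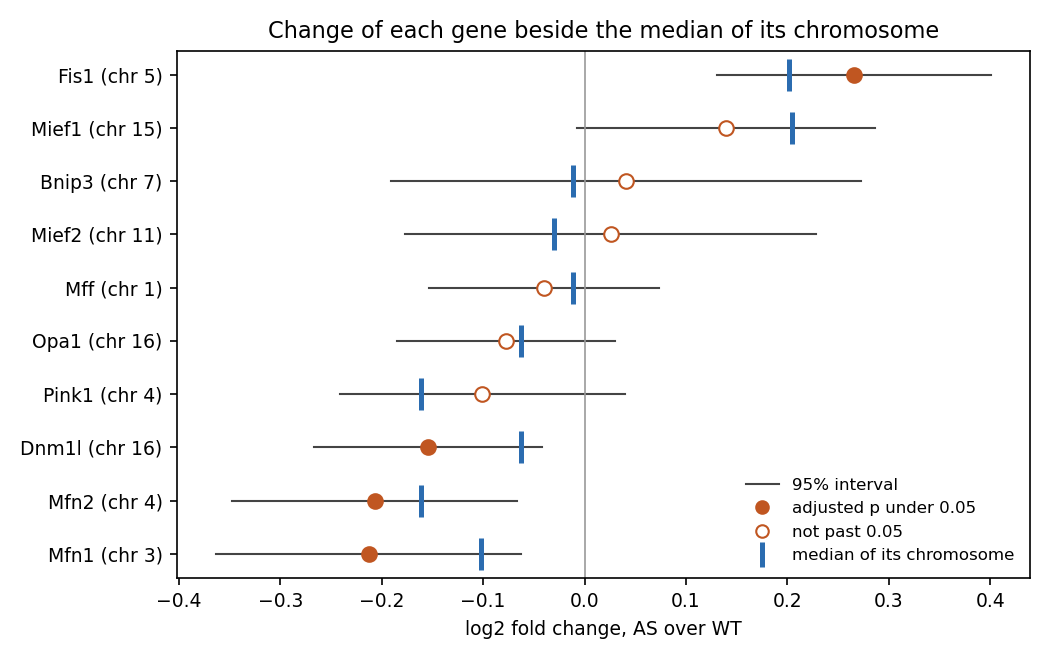
Log2 fold change of each gene (AS over WT) with its 95% interval from edgeR, filled where the adjusted p was under 0.05, and a vertical mark at the median of its chromosome. Fis1 at 0.27 and Mfn2 at -0.21 lie close to the marks of chromosomes 5 (0.20) and 4 (-0.16), and each mark lies inside the interval of its gene.

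Levels of different genes were compared as CPM per kilobase of annotated exon. In WT podocytes the order was Dnm1l (30.4), Fis1 (30.0), Mfn2 (29.7), Pink1 (22.6), Opa1 (12.1), Mfn1 (8.79), Mff (8.50), Bnip3 (6.83), Mief1 (5.85) and Mief2 (4.69 CPM per kilobase). Dnm1l, Fis1 and Mfn2 overlapped with one another in WT podocytes, as did Mfn1 and Mff, while the remaining neighbours in the order were separate. In AS podocytes Fis1 stood first at 36.1 ± 0.939 CPM per kilobase (SD, n = 3), above Dnm1l at 27.3 ± 0.673 and Mfn2 at 25.8 ± 0.549. The AS samples of these 3 genes did not overlap with one another, whereas Mfn1 overlapped with both Mff and Bnip3, and Bnip3 with Mief1. All 10 genes lay above the median of the genes tested by this measure, from the 54.2 percentile (Mief2) to the 91.5 percentile (Fis1). The highest level in WT podocytes was 6.48 times the lowest, a wider range than any difference between the lines among these 10 genes. Annotated exon length includes exons that these cells may not use, which affects the order of genes and not the comparison of the lines.

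Related genes were compared within each sample, which removes the scaling of the library. Per Mfn2 count, the WT libraries held 0.395, 0.320 and 0.334 Mfn1 counts and the AS libraries 0.328, 0.364 and 0.348, with overlapping ranges (difference of -0.0087 on the log2 scale, SD 0.16 in WT and 0.075 in AS, exact permutation p = 0.90). The ratio of Mief1 to Mief2 was 3.65, 3.97 and 3.55 in WT and 3.99, 3.88 and 4.22 in AS samples (log2 difference 0.12, exact permutation p = 0.20). Opa1 per Dnm1l was 0.608, 0.595 and 0.604 in WT and 0.628, 0.623 and 0.657 in AS samples (log2 difference 0.077, exact permutation p = 0.10). This was the only one of the 4 ratios without overlap between the lines. Bnip3 per Bnip3l was 0.127, 0.124 and 0.124 in WT and 0.147, 0.133 and 0.119 in AS samples (log2 difference 0.084, exact permutation p = 0.40). The tests were two-sided and 3 against 3 samples cannot go below 0.10. Adjusted over the 4 ratios, p lay between 0.40 and 0.90 (exact permutation).

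**Figure D3:**
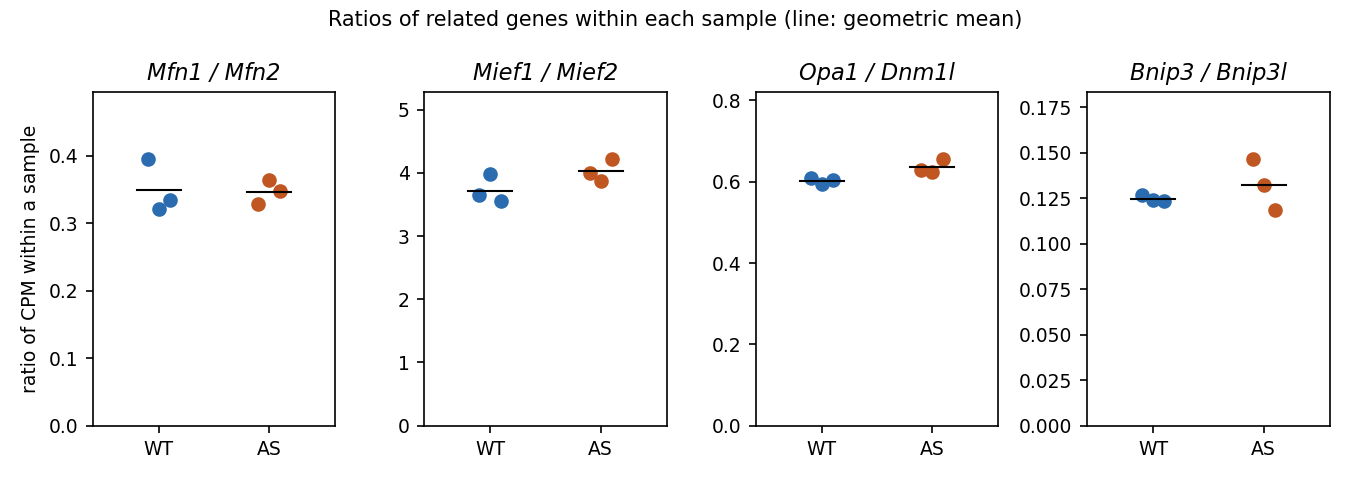
Ratio of the CPM of 2 related genes in each WT and AS sample (axis from 0), with a line at the geometric mean of each group. Opa1 per Dnm1l is 0.595 to 0.608 in WT and 0.623 to 0.657 in AS samples, while the other ratios overlap.

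The other genes of these pathways were read from 10 lists, of which 99 genes were tested. AS podocytes had 18 of them at a higher and 18 at a lower level, so that 36 of 99 passed, beside 40.1% of all genes. Against the chromosome median, 18 of the 87 list genes on chromosomes with a median passed, beside 33% of all genes tested. Within the list of the PINK1 pathway 4 of 8 genes were higher and 1 was lower. The higher genes were the kinase Tbk1, which phosphorylates mitophagy adaptors, with a log2 fold change of 0.46 (adjusted p = 0.000717), the deubiquitinases Usp30 (0.29, adjusted p = 0.00409) and Usp15 (0.23, adjusted p = 0.0118), which oppose mitophagy, and the F-box protein Fbxo7 (0.30, adjusted p = 0.0132, edgeR). Tbk1, Usp15 and Fbxo7 lie on chromosome 10, whose median was 0.32, and Usp30 on chromosome 5. Against these medians the log2 difference was 0.14 for Tbk1, 0.093 for Usp30, -0.098 for Usp15 and -0.020 for Fbxo7, with adjusted p of 0.165, 0.276, 0.228 and 0.869 (edgeR). Usp15 also lost the threshold without WT replicate 3 (adjusted p = 0.0557) or AS replicate 2 (adjusted p = 0.0512), and Fbxo7 without WT replicate 3 (adjusted p = 0.0507) or AS replicate 1 (adjusted p = 0.0539, edgeR). Some genes of the adaptor list link ubiquitin on mitochondria to autophagosomes, a role that was not tested here for any of them. That list had 1 gene higher (Calcoco1, 0.31, adjusted p = 0.00114) and 1 lower (Tax1bp1, -0.24, adjusted p = 0.00561) of 5 tested (edgeR). Neither passed against the chromosome median (adjusted p = 0.145 and 0.537, edgeR). The receptor list, which also holds the small GTPase Rab9, had 1 higher and 2 lower of 8. Bcl2l13 fell by 0.41 (adjusted p = 0.000848) and Nipsnap1 fell by 0.42 on the log2 scale (adjusted p = 0.00302), whereas Rab9 rose by 0.22 (adjusted p = 0.0477), and all 3 passed against the chromosome median as well (edgeR). The call for Rab9 was lost without any 1 sample other than WT replicate 1, at an adjusted p of 0.0677 to 0.157 (edgeR), and also with DESeq2 (adjusted p = 0.0642), with its size factors (0.0537) and without a filter on low counts (0.102).

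Of the fission accessory genes, 1 was higher and 3 were lower of 12, beside 40.1% of all genes called. These 4 also passed against the median of their chromosomes, beside 33% of all genes. March5, a ubiquitin ligase of the outer membrane that acts on DRP1 and the mitofusins, rose from between 109 and 117 CPM in WT to between 148 and 160 CPM in AS samples (log2 fold change 0.43, adjusted p = 0.000309, edgeR). The fission regulator Mtfr1l fell by 0.36 (adjusted p = 0.000928), the dynamin Dnm2 fell by 0.25 (adjusted p = 0.00588) and Mtfr2 fell by 1.01 on the log2 scale (adjusted p = 0.0185, edgeR). Mtfr2 was low, at 1.89 to 2.82 CPM in WT and 0.866 to 1.53 CPM in AS samples, and it lost the threshold without WT replicate 2, AS replicate 1 or AS replicate 2 (adjusted p up to 0.0764, edgeR). Of 11 genes of fusion and inner membrane processing 3 were lower and the other 8 did not pass. Those lower were Msto1, a cytosolic protein needed for fusion (-0.45, adjusted p = 0.00143), the import receptor Chchd4 (-0.51, adjusted p = 0.00492) and Slc25a46 of the outer membrane (-0.18, adjusted p = 0.0217, edgeR). The list had a median of -0.16, and Msto1 and Chchd4 passed against the chromosome median. Slc25a46 lost the threshold without WT replicate 2, WT replicate 3, AS replicate 2 or AS replicate 3 (adjusted p = 0.0535 to 0.0908, edgeR).

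Of 9 genes of the MICOS complex and its partners, which hold the cristae junctions, 4 were lower and 1 was higher, among them Micos10 (-0.33, adjusted p = 0.00143), Dnajc11 (-0.33, adjusted p = 0.00225), Immt (-0.21, adjusted p = 0.0102) and Chchd3 (-0.25, adjusted p = 0.0115, edgeR). These 4 lie on chromosomes 4 and 6, whose medians were -0.16 and -0.19, and only Micos10 passed against the chromosome median. Of 7 transport genes 1 was lower, the motor adaptor Trak2 (-0.19, adjusted p = 0.0137, edgeR), which lost the threshold without WT replicate 3 or AS replicate 3 (adjusted p = 0.0600 and 0.0525, edgeR). Against the chromosome median Trak2 passed (log2 difference -0.18, adjusted p = 0.0222, edgeR). Of 13 import and porin genes 3 were higher and 2 lower. The porin Vdac1 fell by 0.33 on the log2 scale (adjusted p = 0.000968), while the porin Vdac3 (0.38, adjusted p = 0.00121), citrate synthase Cs (0.33, adjusted p = 0.00150) and Timm44 (0.43, adjusted p = 0.00205) rose (edgeR). The last 3 lie on chromosomes 8 and 10 with medians of 0.32 each. Against these medians Cs differed by 0.0037, Vdac3 by 0.052 and Timm44 by 0.11 on the log2 scale, and none of the 3 passed. Vdac1, on chromosome 11, did pass against its median (log2 difference -0.30, adjusted p = 0.00203, edgeR). In this list 3 of the 13 genes passed against the chromosome median, beside 33% of all genes. The summed level of this list was 1750 to 1816 CPM in WT and 1682 to 1777 CPM in AS podocytes, so the ranges overlapped.

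Of 12 mitochondrially encoded mRNAs, 12 had a positive log2 fold change with a median of 0.41. The abundant ones among them rose and fell with the mitochondrial share of counts in each library, given below, so the 12 are not independent observations. Their mean levels in WT ran from 0.178 to 4396 CPM, so this median rests in part on genes with few counts. Why some were so low was not tested. Of the 12, 1 passed, mt-Atp6 (0.77, adjusted p = 0.0309, edgeR). Its level of 1.36 to 3.40 CPM was very low beside a list sum of 8660 to 19114 CPM, and it kept an adjusted p under 0.05 only without AS replicate 1 among the 6 fits that left out a sample (0.0564 to 0.130 in the other 5, edgeR). Of all counts, the mitochondrial chromosome took 0.882, 1.39 and 1.68% in WT replicates 1, 2 and 3 and 1.30, 1.65 and 2.02% in AS replicates 1, 2 and 3. The ranges of the lines overlapped, while each AS library lay above the WT library that the labels give the same set number. Because Bnip3 is a target of the hypoxia-inducible factors, 15 hypoxia response genes were examined, 14 of them tested. Of these 6 were higher and 1 was lower. Adm (adrenomedullin) rose from between 3.65 and 7.35 CPM to between 17.4 and 22.0 CPM (log2 fold change 1.81, adjusted p = 0.000176), Pdk1 rose by 0.59 (adjusted p = 0.000619) and Egln1 by 0.40 (adjusted p = 0.00185), whereas the glucose transporter Slc2a1 fell by 0.61 on the log2 scale (adjusted p = 0.000238, edgeR). Against the chromosome median 4 of the 14 passed, beside 33% of all genes. Egln1, on chromosome 8, did not (log2 difference 0.081, adjusted p = 0.427, edgeR). Bnip3, with its interval of -0.19 to 0.27, did not pass beside them, and the difference between Bnip3 and these genes was not tested.

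**Figure D4:**
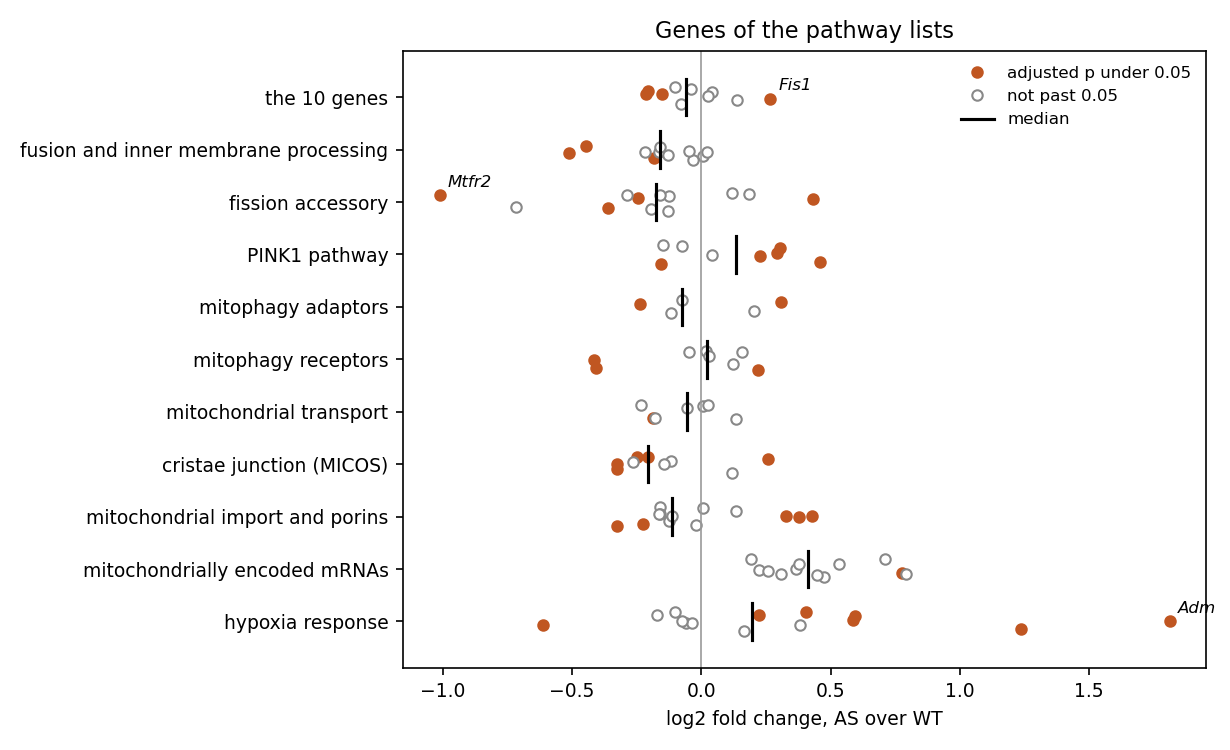
Log2 fold change (AS over WT) of each tested gene of the 10 genes and of the 10 lists, filled where edgeR's adjusted p was under 0.05, with a line at the median of each list. Mtfr2 at -1.01 and Adm at 1.81 are the lowest and the highest points, while the 10 genes lie between -0.21 and 0.27.

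The 4 calls among the 10 genes were not equally firm. Fis1 passed with each sample left out in turn (6 of 6 fits, log2 fold change 0.23 to 0.30) and under every other tool, filter and scaling tried, but not against the median of chromosome 5. Mfn1 lost the threshold without WT replicate 1, WT replicate 3, AS replicate 1 or AS replicate 3, with an adjusted p of 0.0542 to 0.106 (edgeR). Mfn2 passed only without WT replicate 1 among those 6 fits, and its adjusted p in the others ran from 0.0526 to 0.0975 (edgeR). Dnm1l likewise passed only without WT replicate 1, with an adjusted p of 0.0597 to 0.132 in the others (edgeR). With library size alone as the scaling, all 3 of the lower genes lost the threshold, at an adjusted p of 0.0592 for Mfn1, 0.0587 for Mfn2 and 0.0711 for Dnm1l (edgeR), and without a filter on low counts Dnm1l did (adjusted p = 0.112, edgeR). Their log2 fold changes stayed below 0 in each of these fits.

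**Figure D5:**
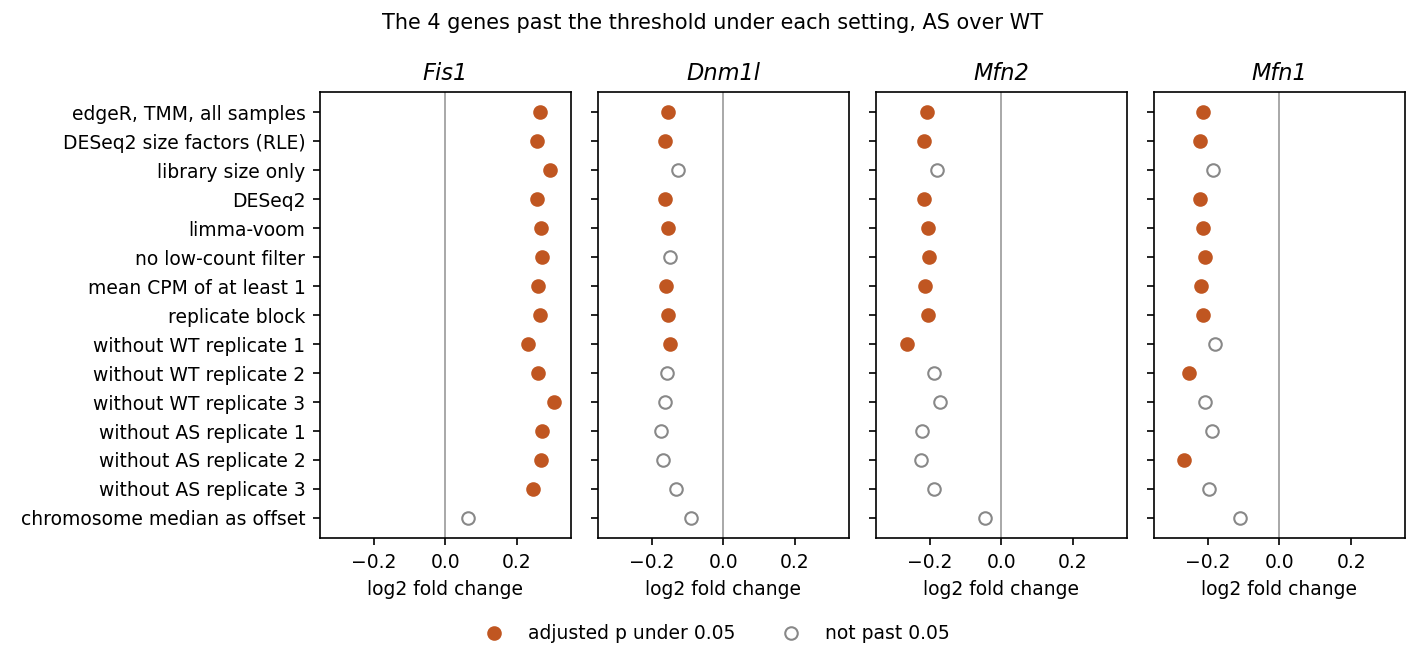
Log2 fold change (AS over WT) of Fis1, Dnm1l, Mfn2 and Mfn1 under each setting, filled where the adjusted p was under 0.05. Fis1 stays near 0.27 until the median of its chromosome is taken into account (0.064), and the other 3 genes stay below 0 with several open points.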

How the data were processed

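RNA of 3 WT and 3 AS podocyte samples was sequenced after mRNA library preparation (15 PCR cycles). The deposited table gives raw counts for each gene as whole numbers, which the authors did not normalize. The submitters' processing notes list FastQC, Trim Galore, STAR and edgeR and the build mm39, and the sources used here name neither a counting tool nor an annotation release. After the version was removed, 51880 of 57132 identifiers matched GENCODE M21 (GRCm38), of which 35 had the same version. M21 therefore gave names, chromosomes and exon lengths only, and the printed promoter coordinates are RefSeq's in GRCm38.p6.

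edgeR 4.0.16 (R 4.3.3) was used for the comparison. filterByExpr (minimum count 10, minimum total 15) selected genes, TMM scaled the libraries, and a two-sided quasi-likelihood test compared the genotypes without covariates. Standard errors were derived from the fold change and the F statistic. Permutation tests were run in SciPy 1.17.1 and transcript matches found with BLAST 2.17.0 (at least 85% identity over 200 bases). DESeq2 1.42.0 and limma 3.58.1 (voom) were alternatives. On simulated data with changes in known genes (15940 genes tested), the test recovered 50.0% of changes of 0.5 on the log2 scale. It recovered 82.1% of changes of 1, and 3.77% of its calls were false. The simulation changed a far smaller share of genes than the 40.1% that passed in the data. Genes with fewer counts than the 10 members were among those changed, so these rates need not hold for the members.

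The genes named were the 10 members, Bnip3l, Col4a3 and from each list the called genes of smallest adjusted p, at most 4. Markers were named for the check of the cells. Some genes of the lists are not reported here and are left out of the counts. The members and lists were chosen with earlier results of these data known. Intervals and limits cover counting error or the spread between samples only.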

Additional observations from a re-analysis of the deposited data

How the results depend on the processing

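The offset by chromosome was chosen after the data were seen. Among the 10 genes, 4 passed the threshold (1 higher, 3 lower). With library size only this became 1 (1 higher, 0 lower), and with the chromosome median as offset it became 0 (0 higher, 0 lower). When the median was only subtracted, the original adjusted p was kept wherever the sign of the fold change stayed the same. A call could then be lost only by a change of sign, and the count stayed at 4 (1 higher, 3 lower). Leaving out single samples gave 1 to 3 (1 higher in each case, 0 to 2 lower). Over the 10 lists the count of 36 fell to 19 with the offset and to 34 with the median subtracted. With library size only, the log2 fold change was -0.18 for Mfn1, -0.18 for Mfn2 and -0.13 for Dnm1l, without a filter it was -0.15 for Dnm1l, and none of these passed. With the offset it was -0.11 for Mfn1, -0.046 for Mfn2, -0.092 for Dnm1l and 0.064 for Fis1. With the chromosome median removed or as offset, Mief1 turned to -0.065, Pink1 to 0.061, Usp15 to -0.098 and Fbxo7 to -0.020. With each sample left out, Mfn1 ran from -0.27 to -0.18, Mfn2 from -0.26 to -0.17, Dnm1l from -0.18 to -0.13, Mief2 from -0.029 to 0.053, Bnip3 from -0.074 to 0.12 and the log2 difference in the ratio of Mfn1 to Mfn2 from -0.069 to 0.083. The causes were not tested. The share of higher calls over all genes was 51.0%, and 55.3% with library size only.

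Whether the replicate numbers pair the samples was not settled. The correlation between same-numbered samples in their deviation from the group mean was 0.284, 0.160 and 0.0801. Each AS replicate correlated most with the WT replicate of the same number, but WT replicate 3 correlated more with AS replicate 2 (0.139). With the replicate block, 7066 genes passed in all against 6517, the same 4 of the 10 genes passed (Fis1 at 0.27, Mfn1 at -0.21, Mfn2 at -0.21 and Dnm1l at -0.15) and 50 list genes passed against 36. Of the 10 lists, the mitochondrially encoded mRNAs gained the most calls: 8 of 12 passed as higher with the block against 1 without it. These mRNAs are not independent of one another. Rab9 lost the threshold with the block (adjusted p = 0.0528, edgeR). The 10 genes held between 562 and 8088 counts per library, and Mief2 and Bnip3, with the fewest, had the largest standard errors (0.090 and 0.10).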
